A study of Drosophila melanogaster with 39 samples.

Results

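RNA from whole testes of Drosophila melanogaster mutant for Cdc73L was compared directly with RNA from whole testes mutant for Paf1L, with 3 libraries of each mutant. These 6 libraries are 6 of the 21 whole-testis libraries and of the 39 samples of the series, and they were chosen by their genotype labels alone. The Cdc73L flies were transheterozygous mutants labelled TH1 and the Paf1L flies were transheterozygous mutants labelled TH2. All were males of 1 to 3 days, kept on standard medium at 25 °C, and polyadenylated RNA was sequenced. The single alleles that were combined in each genotype are not named in the labels. Of the other whole-testis libraries, 6 came from the control stocks w1118 and w1118 iso, 3 from Ctr9L mutants and 6 from Leo1L mutants (a cross and its inverse), and they served to estimate the spread and to place the values. The labels do not say whether replicates came from separate flies or cultures, so the p values measure the spread between libraries, which may be technical.

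The PAF1 complex travels with RNA polymerase II during elongation, where it aids passage through chromatin and is needed for histone modifications over transcribed genes. Paf1, Ctr9, Leo1 and Cdc73 are subunits of it, and Drosophila has a second set of these subunits, here called by an added L, that is used in the male germline. Spermatocytes, the male germ cells before and during the meiotic divisions, transcribe a very large part of the genome, and their repertoire differs from that of somatic cells. The comparison sets the RNA left by loss of one subunit beside that left by loss of another.

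Accessory gland RNA differed between the 6 libraries and is given before any gene is read. The accessory gland, a neighbour of the testis, makes the seminal proteins, so the genes of these proteins mark gland rather than testis tissue. A gland score, the mean log2(signal + 1) of 9 marker genes, was 1.33, 1.61 and 4.43 in the 3 Cdc73L libraries and 1.96, 6.19 and 7.60 in the 3 Paf1L libraries. Thus 2 Cdc73L libraries and 1 Paf1L library were low, the other Cdc73L library was intermediate and the other 2 Paf1L libraries were high. The controls lay between 4.85 and 6.90. Acp36DE, a seminal protein needed for sperm storage, had a signal of 12.3, 14.4 and 178 in Cdc73L and of 39.9, 647 and 1721 in Paf1L libraries, so the mutants overlapped.

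**Figure D1:**
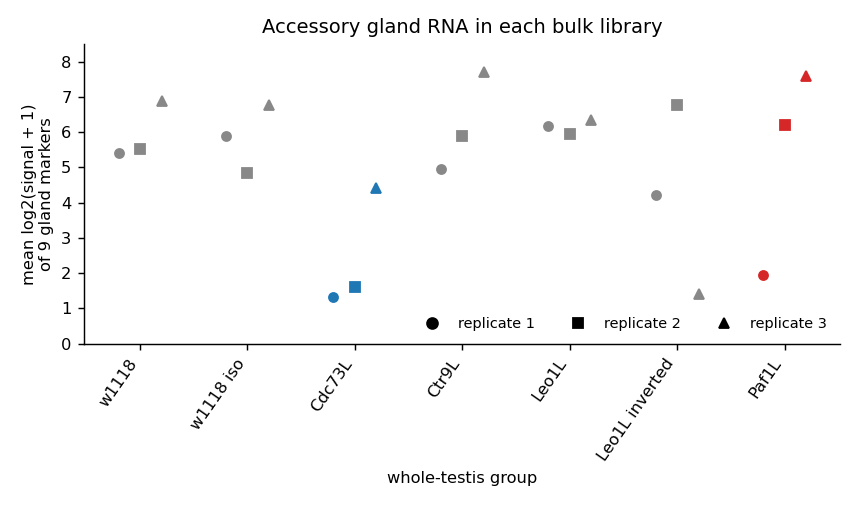
The vertical axis gives the mean log2(signal + 1) of 9 accessory gland markers and the horizontal axis the 7 whole-testis groups, with 1 point per library and its shape giving the replicate number (Cdc73L blue, Paf1L red, other groups grey). The Cdc73L libraries lie at 1.33, 1.61 and 4.43 and the Paf1L libraries at 1.96, 6.19 and 7.60.

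Of the 13659 genes of the table, 10925 had a mean signal of at least 1 over the 21 libraries and were tested. Replicates of a mutant correlated across these genes with a median r of 0.983 (6 pairs, lowest 0.968) and libraries of different mutants with a median r of 0.970 (9 pairs, lowest 0.954). These correlations are across genes, which are not independent replicates. Dividing each total by the smallest step between low values gave about 8.86 to 12.8 M reads (M, 1e+06) in the 6 libraries, and a signal of 0.224 to 0.321 for 3 reads, which was taken as the smallest that can be told from 0 and covers counting error only. Markers of the testis were present in all 6 libraries: the summed signal of 9 early germline genes was 1098 to 1263, that of 7 sperm chromatin genes 2731 to 3308, and that of 9 hub and cyst genes 237 to 288.

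The genotype labels were checked first. CG12674, the gene of Paf1L (FBgn0031388, assembly BDGP6.54, 2L:2079919-2081286, plus strand), had a signal of 48.1, 55.6 and 42.5 in the Cdc73L libraries and of 6.67, 2.84 and 5.08 in the Paf1L libraries. The Paf1L libraries were all far below the Cdc73L libraries, which lay near the 47.6 to 59.7 of the 6 controls. The log2 fold change, always given as Cdc73L minus Paf1L, was 3.13 ± 0.17 (SE; limma with Benjamini-Hochberg, adjusted p = 1.28e-09). The labels do not pair Cdc73L with a gene identifier of the table, so the Cdc73L label has no such check from a gene known to be mutated. CG6220 was low in the Cdc73L libraries alone among the 21, and whether it is the gene of Cdc73L could not be settled from the sources used here. CG10887, the gene of Leo1L, and CG9899, listed in RefSeq with the synonym dctr9, had log2 fold changes of 0.04 and 0.05 (limma with Benjamini-Hochberg, adjusted p = 0.854 and 0.768).

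Few genes separated the mutants by a large amount, and most of those were higher in Paf1L mutants. Requiring an adjusted p under 0.05 together with a log2 difference of 1 or more, 99 genes (0.906% of those tested) were called, 30 (0.275%) higher in Cdc73L and 69 (0.632%) lower in Cdc73L (limma, Benjamini-Hochberg, 3 libraries against 3). Their median log2 fold changes were 1.23 and -1.45. All 99 had libraries of the mutants that did not overlap, which 30.6% of all tested genes also showed. At any fold 734 genes (6.72%) passed, 393 (3.6%) higher and 341 (3.12%) lower in Cdc73L, and the median log2 fold change of all tested genes was 0.0045.

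The accessory gland genes were not among the calls, although nearly all had lower means in Cdc73L. Of 37 tested genes whose symbol starts with Acp or Sfp, 36 had a negative log2 fold change, with a median of -1.99, and 0 were called (limma). At an unadjusted p under 0.05 there were 17, against 2326 of all 10925 tested genes. The 9 score markers gave a median of -2.71 and 0 calls, with 6 at an unadjusted p under 0.05. With the gland score as a covariate the median of both sets was -0.03, which for the 9 markers follows from the score being their mean. Then 95 genes were called, 31 higher and 64 lower, of which 85 were among the 99. The count depended on the low-gland Paf1L library: without Paf1L replicate 1, 224 genes were called, 31 higher and 193 lower, and 22 of the 37 seminal protein genes and 8 of the 9 markers were then called lower in Cdc73L.

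Libraries on the same side of a gland score of 3 were also compared, with the other groups kept for the spread. This alternative was chosen after seeing the data. On the upper side the scores still differed, with 4.43 in the Cdc73L library and 6.19 and 7.60 in the Paf1L libraries. On the lower side they were 1.33 and 1.61 in the Cdc73L libraries and 1.96 in the Paf1L library. There the summed signal of the 9 markers was 24.1 and 29.2 against 57.4. Gland RNA was thus not matched on either side. With scores under 3 (Cdc73L replicates 1 and 2 against Paf1L replicate 1) 62 genes were called, 24 higher and 38 lower in Cdc73L. With scores of at least 3 (Cdc73L replicate 3 against Paf1L replicates 2 and 3) 62 were called, 19 higher and 43 lower. The lone library on each side is assumed to vary like the other groups. All 99 genes had the same direction in both, which was fixed in advance because their libraries do not overlap. On the log2 scale, 19 of the 30 and 50 of the 69 differed by at least 1 in both. These counts reuse the libraries that made the calls.

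**Figure D2:**
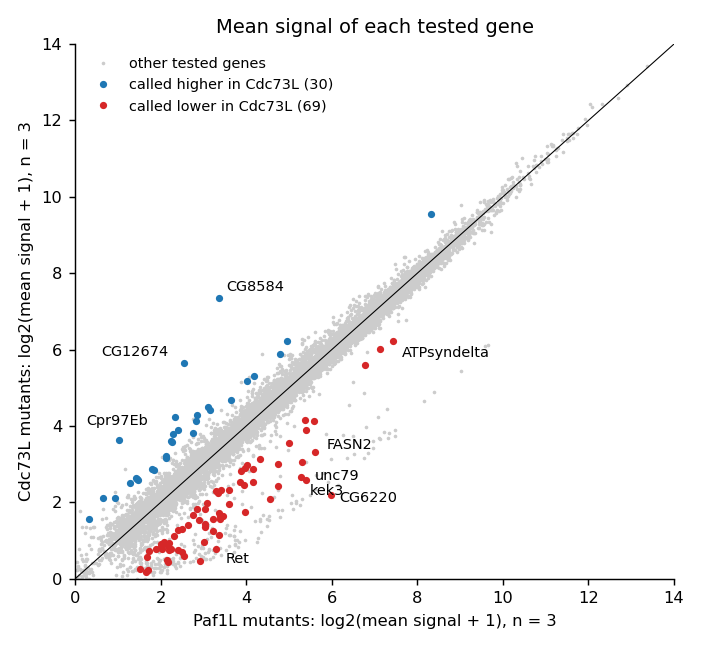
Each point is 1 of 10925 tested genes, placed by log2(mean signal + 1) of the 3 Paf1L libraries (horizontal) and of the 3 Cdc73L libraries (vertical), with the line of equal signal. The 30 genes called higher in Cdc73L are blue and the 69 called lower are red, and the grey points far below the line include the accessory gland genes, which were not called.

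Among the 99 called genes, CG8584 had the largest difference toward Cdc73L and CG6220 the largest toward Paf1L. CG8584 (FBgn0033322, chromosome 2R, minus strand) had a signal of 170, 153 and 160 in Cdc73L and of 9.02, 9.07 and 9.85 in Paf1L libraries. Only the Paf1L libraries were low: the controls lay between 168 and 203, Ctr9L mutants between 138 and 154, and the Leo1L crosses between 136 and 159. The log2 fold change was 3.98 ± 0.07 (SE; limma with Benjamini-Hochberg, adjusted p = 1.2e-17). In sorted Paf1L spermatocytes, which carried the FS1 allele, its signal was 110 ± 3.56 against 131 ± 2.37 in sorted controls (SD, n = 3 each), a log2 fold change of -0.25 (limma with Benjamini-Hochberg, adjusted p = 0.0333), so the large difference was measured in the TH2 whole testes and not in the sorted cells. The 2 tables were normalized separately and their levels are not compared.

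CG6220 (FBgn0033865, chromosome 2R, minus strand) went the other way, and since it may be the mutated gene itself, its value may show the mutation and not a response to it. It had a signal of 3.75, 3.28 and 3.8 in Cdc73L and of 66.1, 58.3 and 61.2 in Paf1L libraries. Here only the Cdc73L libraries were low, since the controls had 58.8 to 65.6 and all Ctr9L and Leo1L libraries 50.7 to 62.2. The log2 fold change was -3.77 ± 0.08 (SE; limma with Benjamini-Hochberg, adjusted p = 1.63e-16). CG8584 and CG6220 kept log2 fold changes of 4.02 and -3.90 among low-gland libraries, and of 3.95 and -3.66 among the others.

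The genes lower in Cdc73L were, as a group, low in the controls and higher in Paf1L. The median over the 69 genes of the mean signal was 1.55 in controls, 2.14 in Cdc73L and 8.85 in Paf1L, and 22 of the 69 had a control mean under 1. In 62 of them every Paf1L library lay above all 6 controls, and in 40 of those 62 the Cdc73L mean lay inside the control range. In 9 both mutants lay wholly above the controls. These positions describe the values that made the calls and are no separate test. They were counted for the called genes only, so no share over all tested genes is given.

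Unc79, a subunit of the NALCN-type sodium leak channel complex (FBgn0038693, 3R:19230764-19246130, minus strand), had a signal of 3.09, 6.42 and 5.51 in Cdc73L and of 39.2, 47.1 and 37.2 in Paf1L libraries. The controls had 0.762 to 3.52, so 1 Cdc73L library lay inside that range and 2 just above it, and the Paf1L libraries lay far above. The log2 fold change was -2.85 ± 0.24 (SE; limma with Benjamini-Hochberg, adjusted p = 6.62e-07). Of 16 listed genes of ion channels, their subunits and the cadherin Cad99C, 14 were tested and 3 were called, all lower in Cdc73L. Of all tested genes, 0.632% were called lower. Cad99C, which is not a channel, is among the 3. The list was chosen with earlier results of these data known, so these counts are no test of channel genes. The list's median log2 fold change was 0.06. Teh1, a subunit that modulates the para channel and is not on the list, was called in the other direction with 1.14, a call that did not hold with the gland score as a covariate.

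Para, the pore subunit of the voltage-gated sodium channel, had 4.58, 4.58 and 5.23 in Cdc73L and 19.6, 18.4 and 12.4 in Paf1L libraries (log2 fold change -1.60; limma with Benjamini-Hochberg, adjusted p = 1.14e-05). Both mutants lay above the controls, which had 0.868 to 1.88. Cad99C had 3.62, 5.62 and 3.96 against 22.3, 27.5 and 27.3 (log2 fold change -2.32; limma with Benjamini-Hochberg, adjusted p = 1.64e-05). The potassium channels Shaw and Shab had log2 fold changes of 0.18 and 0.55, which did not pass, and na, the pore of the leak channel, had -0.05.

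The other genes of largest difference in this direction encode varied proteins. Ret, a receptor tyrosine kinase, had 0.956, 0.802 and 0.430 in Cdc73L and 7.58, 9.92 and 9.14 in Paf1L libraries (log2 fold change -2.52; limma with Benjamini-Hochberg, adjusted p = 1.68e-06). FASN2, a fatty acid synthase, had 7.40, 10.1 and 9.24 against 44.6, 54.4 and 45.4 (log2 fold change -2.31; limma with Benjamini-Hochberg, adjusted p = 3.6e-06). For both genes the Cdc73L libraries lay within the range of the controls (0.323 to 1.77 for Ret, 7.37 to 16.5 for FASN2), and the Paf1L libraries lay wholly above it. Kek3, a transmembrane protein with leucine-rich repeats, and CCHa1, a neuropeptide precursor, had log2 fold changes of -2.61 and -2.45. Con, the cell adhesion protein connectin, and antdh, an antennal dehydrogenase, had -2.24 and -2.46, and antdh was at 0.427, 0.179 and 0.527 in Cdc73L libraries, near the signal of 3 reads. CG17568, CG32333 and CG42750 had -2.26, -2.22 and -2.08.

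**Figure D3:**
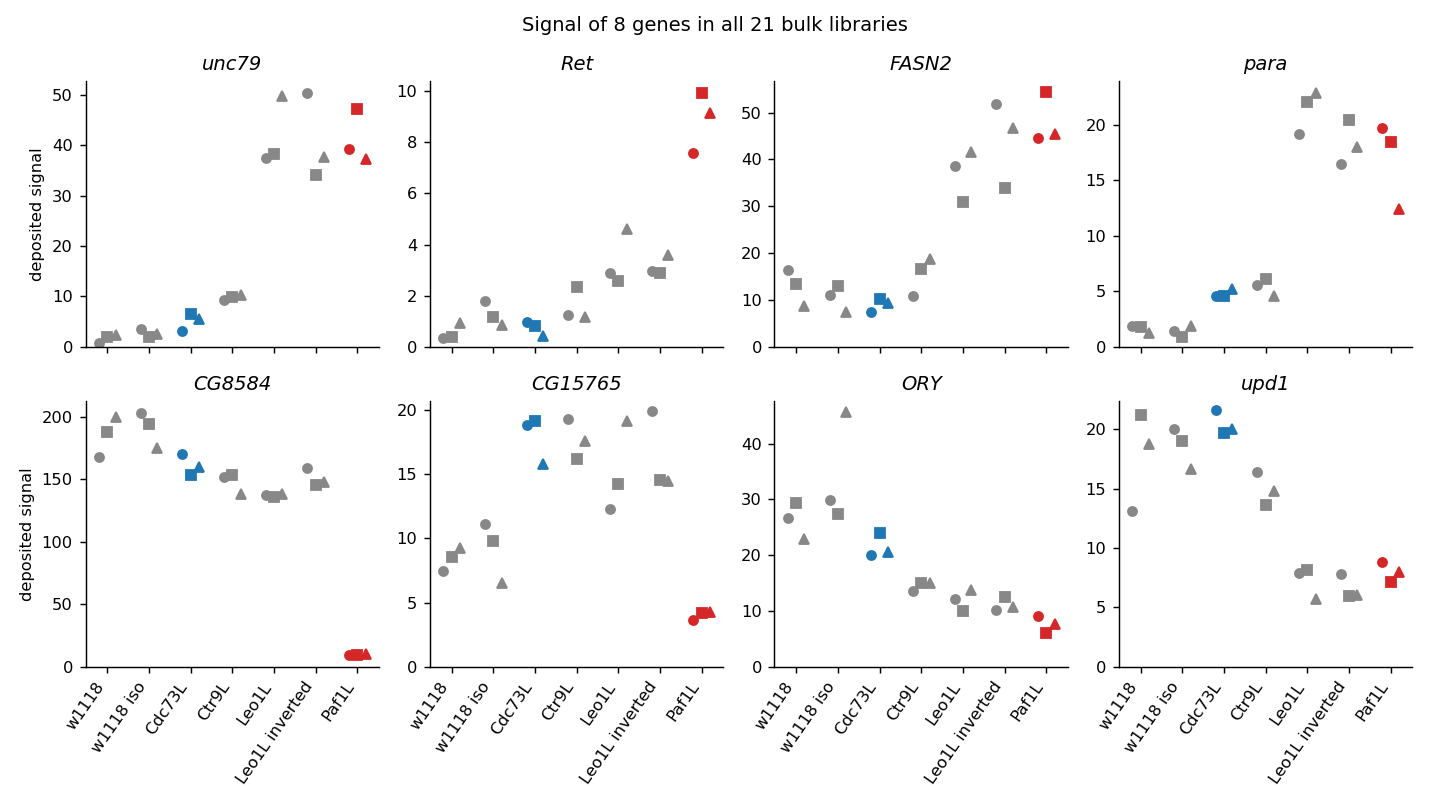
Each panel gives the deposited signal of 1 gene (vertical, linear, from 0) in the 21 whole-testis libraries by group (horizontal), with the shape giving the replicate number (Cdc73L blue, Paf1L red). For unc79, Ret, FASN2 and para the Paf1L points lie above the Cdc73L points, and for CG8584, CG15765, ORY and upd1 below them.

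The genes higher in Cdc73L showed the converse levels. The median over the 30 genes of the mean signal was 12.3 in controls, 12.9 in Cdc73L and 3.96 in Paf1L. In 25 of the 30 every Paf1L library lay below all 6 controls, and in 18 of those 25 the Cdc73L mean lay inside the control range. In 6 of the 30 every Cdc73L library lay above the controls. These positions too describe the values that made the calls, were counted for the called genes only and are no separate test. Net, a basic helix-loop-helix factor of wing vein patterning, had 19.2, 20.7 and 16 against 5.44, 6.43 and 6.6 (log2 fold change 1.45; limma with Benjamini-Hochberg, adjusted p = 7.53e-06), with controls between 16.1 and 32.3.

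Cpr97Eb, a cuticle protein, had 8.92, 10.3 and 15.2 in Cdc73L and 0.766, 0.921 and 1.42 in Paf1L libraries (log2 fold change 2.60; limma with Benjamini-Hochberg, adjusted p = 1.55e-06). CAH9, a carbonic anhydrase 11857 bases from it on chromosome 3R, had a log2 fold change of 1.43. Neither reached the mean of 1 needed for testing in the table of sorted spermatocytes described further on. Vajk4, CG12224, CG6055 and CG43915 had log2 fold changes of 1.55, 1.54, 1.38 and 1.30.

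For CG15765 and Dop2R the controls were not near the Cdc73L level. CG15765 (FBgn0029814, X:5818559-5840823, plus strand) had 18.9, 19.2 and 15.8 in Cdc73L and 3.65, 4.18 and 4.25 in Paf1L libraries, while the controls had 6.56 to 11.1. The Cdc73L libraries were thus all above and the Paf1L libraries all below the controls, and the log2 fold change was 1.91 ± 0.17 (SE; limma with Benjamini-Hochberg, adjusted p = 1.55e-06). Its neighbour CG12729, 4456 bases away on the same strand and named after its values were seen, was called in the same direction with 1.29. Dop2R, a dopamine receptor, had 10.1, 11 and 11.6 against 3.24, 4.62 and 3.49, with controls between 1.88 and 4.50 (log2 fold change 1.32; limma with Benjamini-Hochberg, adjusted p = 0.000604), so that here Paf1L and not Cdc73L lay near the controls.

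Among markers of testis cell types, 1 gene was called. Upd1, the JAK-STAT ligand that hub cells at the testis tip send to the stem cells, had 21.6, 19.7 and 20.01 in Cdc73L and 8.81, 7.14 and 7.94 in Paf1L libraries. All Paf1L libraries were below all Cdc73L libraries and below the controls, which had 13.1 to 21.2. The log2 fold change was 1.26 ± 0.16 (SE; limma with Benjamini-Hochberg, adjusted p = 4.54e-05). It was the only gene of 9 hub and cyst markers that passed (1 of 9, against 0.275% of all genes; list median 0.02), and Fas3, another hub marker, had 0.36. In sorted cells upd1 fell from 27.7 ± 2.17 in controls to 4.36 ± 0.61 in Paf1L mutants (SD, n = 3 each), a log2 fold change of -2.42 (limma with Benjamini-Hochberg, adjusted p = 5.46e-06). In bulk tissue, fewer cells of a type and less RNA per cell cannot be told apart. The sorted cells were sorted as spermatocytes and not as hub cells, and which cells held the upd1 RNA was not tested.

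Of 12 genes of the Y chromosome, 8 were higher in Cdc73L than in Paf1L mutants. Y genes are transcribed in spermatocytes, several with introns of very great length, and kl-2, kl-3 and kl-5 encode dynein heavy chains of the sperm tail. All 12 listed Y genes had a positive log2 fold change, 8 passed at any fold (against 3.6% of all genes), and 2, CCY and ORY, were called (against 0.275%). These genes lie on the same chromosome, so the counts are not of separate observations. The list's median was 0.60. With the gland score as a covariate 7 passed, PRY no longer among them.

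ORY had 20.01, 24.1 and 20.5 in Cdc73L and 9.15, 6.11 and 7.69 in Paf1L libraries (log2 fold change 1.39; limma with Benjamini-Hochberg, adjusted p = 3.34e-05). CCY had 60.6, 64.2 and 49.0 against 28.4, 23.9 and 28.1 (log2 fold change 1.08; limma with Benjamini-Hochberg, adjusted p = 0.000103), and it lost its call to the fold limit alone with the gland covariate, at 0.99. Kl-2 had 31.8, 28.6 and 27.7 against 15.2, 16.4 and 14.7, and its controls had 35.6 to 42.6, so both mutants lay below the controls. Kl-5 had 59.5, 61.5 and 51.1 against 30.4, 25.2 and 29.3 with controls at 58.8 to 91.2, and here Cdc73L reached the control range. The log2 fold changes were 0.89 for kl-2, 0.99 for kl-5, 0.66 for kl-3 and 0.77 for WDY, all passing at any fold (limma with Benjamini-Hochberg, adjusted p = 5.76e-06, 2.85e-05, 0.00201 and 0.00523). PRY and Pp1-Y2 passed with 0.46 and 0.54, while ARY, FDY, Ppr-Y and Pp1-Y1 had 0.09, 0.36, 0.13 and 0.39 and did not.

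**Figure D4:**
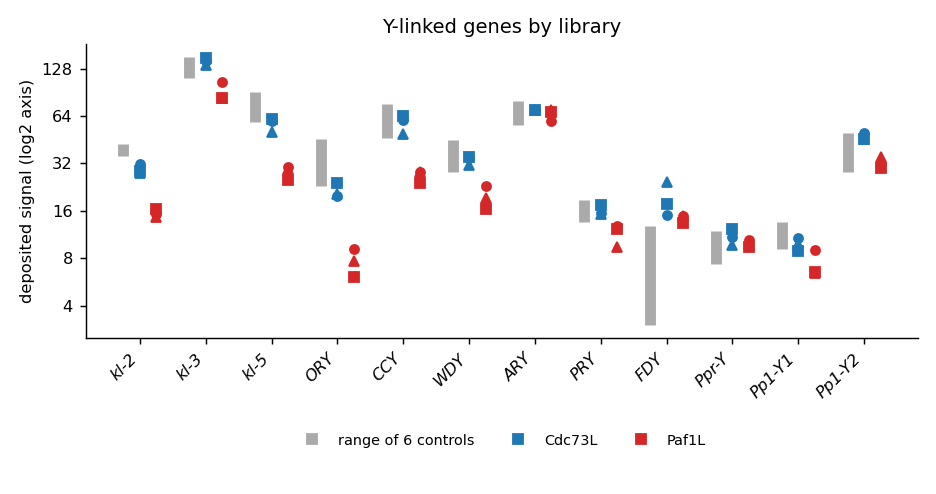
The vertical axis is the deposited signal on a log2 axis and the horizontal axis lists 12 Y-linked genes; blue and red points are the 3 Cdc73L and 3 Paf1L libraries (shape gives the replicate number) and grey bars span the 6 controls. For kl-2, kl-3, kl-5, ORY, CCY, WDY, PRY and Pp1-Y2 every Cdc73L point lies above every Paf1L point, and for ARY, Ppr-Y and Pp1-Y1 the points overlap.

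Few genes of the germline lists passed, and their counts are to be read against the 6.72% of all tested genes that passed at any fold. Counts at an unadjusted p under 0.05 are to be read against 2326 of all 10925 tested genes (limma). Of 14 meiotic arrest genes, whose products switch on the spermatocyte programme, 0 were called and 2 passed at any fold, mia with -0.43 and Taf12L with -0.47 (limma with Benjamini-Hochberg, adjusted p = 0.000709 and 0.00998). Twe, the meiotic Cdc25 phosphatase, had -0.32, the only one of 10 tested meiosis genes to pass. Of 9 early germline and 7 sperm chromatin genes, 0 passed (limma; 0 and 1 at an unadjusted p under 0.05), and the list medians were 0.02 and -0.18. Of 20 genes of a cup and comet list, many of them transcribed after meiosis, s-cup passed with -0.62 (1 of 20), but not with the gland score as a covariate (limma with Benjamini-Hochberg, adjusted p = 0.087). In the respiratory chain ND-51L1 and ND-24L, testis forms of complex I subunits, passed with 0.58 and 0.41 of 12 tested. The PAF1 complex subunits expressed in all cells (5 tested) and 15 other elongation factors gave 0 that passed (limma; 1 and 2 at an unadjusted p under 0.05), with medians of 0.01 and 0.02.

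Of 15 sperm tail genes, 0 were called (limma; 4 at an unadjusted p under 0.05, against 2326 of all 10925 tested genes). Mst84Db and Mst84Dc passed with 0.30 and 0.26. With the gland score as a covariate neither passed (limma with Benjamini-Hochberg, adjusted p = 0.0722 and 0.137). The list also holds Mst57Da and Mst57Db, which are known as transcripts of the accessory gland and not as sperm tail genes. They had -3.03 and -3.06, did not pass and were 0.15 and 0.07 with the gland score as a covariate. S-Lap7, a leucyl aminopeptidase of sperm, passed with 0.39 (1 of 8 tested), Hsp23 with -0.39 (1 of 10 heat shock genes) and Ddc, dopa decarboxylase, with 0.79 (1 of 8 pigment and cuticle genes), against 6.72% of all tested genes. S-Lap7 and Hsp23 did not pass with the gland score as a covariate (limma with Benjamini-Hochberg, adjusted p = 0.058 and 0.13). Of 9 tested immune genes 0 passed (limma; 1 at an unadjusted p under 0.05), and no Stellate gene reached the mean needed for testing.

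Markers of other tissues were measured beside these groups. Of all 10925 tested genes, 5554 had a positive log2 fold change and 6.72% passed at any fold. At an unadjusted p under 0.05 there were 2326 of the 10925 (limma). All 13 muscle genes had a positive log2 fold change, with a median of 0.28, and Act87E alone passed with 0.37. Their summed signal was 1169 to 1527 in Cdc73L and 1021 to 1155 in Paf1L libraries, against 1500 to 1752 in controls. Of 5 tested genes of the ejaculatory duct and bulb, EbpIII passed with 0.55, but not with the gland score as a covariate (limma with Benjamini-Hochberg, adjusted p = 0.0736). The list median was -1.18, and Dup99B had 1.73, 2.27 and 4.95 against 21, 41.3 and 42.5. Of 4 fat body, 4 hemocyte and 5 neuronal genes 0 passed (limma; 0, 1 and 1 at an unadjusted p under 0.05), and the neuronal sum was 39.3 to 57.3 in Cdc73L and 34.9 to 43.2 in Paf1L libraries. The part of these tissues in the gene differences was not tested, except that the gland score entered a fit as a covariate.

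The gland score as a covariate ended the call of some genes. Tsf1, an iron-binding transferrin, had 844, 985 and 430 in Cdc73L and 393, 359 and 197 in Paf1L libraries, with a log2 fold change of 1.22 that became 0.90 (limma with Benjamini-Hochberg, adjusted p = 0.0264 and 0.13). In each mutant the library with the highest gland score had the lowest Tsf1 signal. CG13801, CG15546, Teh1 and CG43742 went from 1.14, 1.15, 1.14 and 1.01 to 0.94, 1.08, 0.78 and 0.90. Skeletor, a nuclear protein of the spindle matrix, went from -1.28 to -0.92, CG5326 from -1.25 to -0.93, and CG8586 from -1.09 to -0.87. Flap, the homeodomain factor exex and nom went from -1.19, -1.10 and -1.08 to -1.15, -0.999 and -0.94. CG13801 and nom still passed at any fold (limma with Benjamini-Hochberg, adjusted p = 0.0218 and 0.0136) and lost their call to the fold limit alone. Flap and CG15546 kept a fold above the limit and lost their call by the adjusted p alone (limma with Benjamini-Hochberg, 0.072 and 0.074).

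A second readout of Paf1L loss, in samples that did not enter the comparison, came from spermatocytes sorted for endogenously GFP-tagged Cdc73L at a stated purity of at least 85%. Paf1L FS1 homozygous mutants and controls, all with the tag, gave 3 columns each, and each column joins 2 libraries, of which 1 was depleted of ribosomal RNA. There 741 of 9495 tested genes (7.8%) were called, 604 higher (6.36%) and 137 lower (1.44%) in the mutant (limma, Benjamini-Hochberg). With quantile normalization this split was 383 higher and 243 lower.

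The genes higher in Paf1L than in Cdc73L whole testes were mostly raised in sorted Paf1L spermatocytes. Of the 69 genes, 66 were tested in the sorted table and 61 (92.4%) were raised there, against 5.99% of the 9333 genes tested in both tables, and 0 were lowered. The 5.99% covers genes of all levels, while the 69 were mostly low in control testes (median 1.55). A gene low in controls can hardly be called lowered. It can also pass the sorted filter through mutant columns where it is high, and such genes were not counted. These shares are thus not matched for level. Those 61 were 10.9% of the 559 genes raised in sorted Paf1L cells among those tested in both. The median sorted log2 fold change of the 66 was 2.45, against 0.05 over all 9333. With the sorted table quantile-normalized, 53 were raised and 1 lowered, and of the 38 and 43 genes called lower among low-gland and among high-gland libraries, 33 and 40 were raised in sorted cells. Without Paf1L replicate 1, 193 genes were called lower in Cdc73L, and of these 89 were tested in sorted cells, where 61 (68.5%) were raised and 3 lowered.

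Unc79 had a sorted signal of 2.57 ± 0.86 in controls and of 124 ± 21 in Paf1L mutants (SD, n = 3 each), a log2 fold change of 5.15 (limma with Benjamini-Hochberg, adjusted p = 6.57e-10). Para went from 1.30 ± 0.51 to 13.6 ± 0.81, a log2 fold change of 2.69 (limma with Benjamini-Hochberg, adjusted p = 3.39e-06), and FASN2 from 13.5 ± 1.84 to 136 ± 20.7, one of 3.24 (limma with Benjamini-Hochberg, adjusted p = 4.88e-09). CG6220 was the only one of the 66 with a negative sorted value, -0.97.

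**Figure D5:**
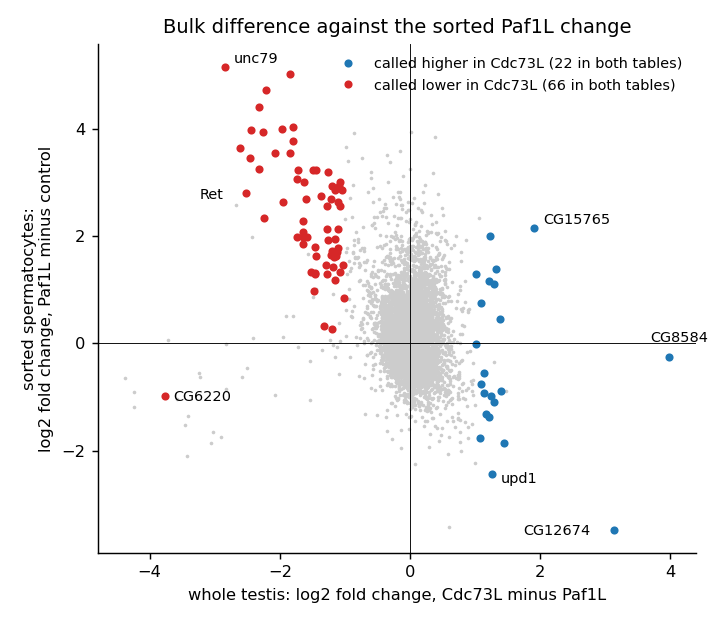
Each point is 1 of 9333 genes tested in both tables, with the whole-testis log2 fold change of Cdc73L minus Paf1L (horizontal) and the sorted-spermatocyte log2 fold change of Paf1L minus control (vertical). The 66 genes lower in Cdc73L (red) lie above 0 on the vertical axis except CG6220, and the 22 genes higher in Cdc73L (blue) lie on both sides.

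The genes higher in Cdc73L were divided in the sorted cells. Of the 30, 22 were tested there, 7 (31.8%) were lowered in sorted Paf1L mutants against 1.43% of genes tested in both tables, and 6 (27.3%) were raised against 5.99%. The 7 were 5.26% of the 133 genes lowered, and 1 of them was CG12674, the gene mutated in both the whole-testis and the sorted Paf1L samples. With the sorted table quantile-normalized, 10 were lowered and 3 raised. CG15765 and Dop2R, low in Paf1L whole testes beside Cdc73L, were raised in sorted Paf1L cells, CG15765 from 2.37 ± 0.95 to 13.7 ± 1.28 and Dop2R from 2.45 ± 0.66 to 8.06 ± 1.87 (SD, n = 3 each; log2 fold changes 2.16 and 1.39; limma with Benjamini-Hochberg, adjusted p = 4.2e-05 and 0.00109). Net and CCY were lowered, by log2 fold changes of -1.85 and -1.76. Across all 9333 genes, the whole-testis log2 fold change of Paf1L minus Cdc73L and the sorted change correlated with r = 0.21, which is a description over genes.

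The other whole-testis groups fell on different sides of the 99 genes. By mean log2(signal + 1), Ctr9L mutants were nearer to Cdc73L than to Paf1L for 63 of the 69 and 26 of the 30 genes, and the controls for 64 and 24. Leo1L mutants were nearer to Paf1L for 65 of the 69 and 25 of the 30, and the inverted Leo1L cross for 60 and 26. The 99 genes were chosen for differing between Cdc73L and Paf1L, and nearness was not counted over all tested genes. Unc79 had 9.31 to 10.2 in Ctr9L libraries and 34.1 to 50.2 in those of both Leo1L crosses, and upd1 had 13.6 to 16.4 and 5.73 to 8.14. CG15765 was an exception, with 12.3 to 19.9 in all Ctr9L and Leo1L libraries. Ret had 2.57 to 4.59 in both Leo1L crosses, between the Cdc73L and the Paf1L libraries.

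Position and length were described without a test. On chromosome Y 2 of 16 tested genes were called (12.5%) and on 3R 10 were called higher and 25 lower of 2688 (1.30%), while the X, 2L, 2R and 3L held 0.678% to 0.800%. Within 1000 kb of CG12674, 219 genes were tested and 1, FASN2, was called. The median annotated length was 5124 bases for the genes lower in Cdc73L, 2039 for those higher and 2500 for all tested genes, and 19.1%, 16.7% and 8.27% were of 20000 bases or longer. Pairs of called genes within 20 kb included nom and ouib, 121 bases apart and both lower in Cdc73L, and CG15546 and CG12071, 897 bases apart and called in opposite directions. CG8584 and CG8586, 4446 bases apart on 2R, were also called in opposite directions (log2 fold changes 3.98 and -1.09). Ouib and CG12071 were named after their values were seen.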

How the data were processed

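The authors deposited, per the labels, 1 table of signal per gene for whole testes and 1 for sorted spermatocytes, under the name GeTMM, which is in use for counts corrected for gene length and scaled by trimmed means; the steps are not given in the sources used here. The submitters' processing notes name STAR, Salmon, edgeR 3.34.0, DESeq2 and dm6, with no role given. Whether the deposited signal was divided by gene length could not be settled, so levels are compared within a gene only, and the strand setting is not given in the sources used here, so overlapping and near-identical genes cannot be told apart. Between 54.6% and 86.9% of low values (up to 6 steps) per library lay within 0.1 of whole multiples of a step, too few to treat them as reads, so no count model was run. Depths are approximate.

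The tests used limma 3.58.1 under R 4.3.3, with lmFit and with eBayes set to follow a mean-variance trend, on log2(signal + 1) of genes with a mean signal of at least 1, over all 21 whole-testis libraries in 7 groups (14 residual degrees of freedom) and over all 9 sorted columns. The pseudocount of 1 understates the fold change of low genes. The median SE of a log2 fold change was 0.127. Adjustment was by Benjamini-Hochberg over all tested genes, and calls needed an adjusted p under 0.05 together with a log2 difference of 1 or more.

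The groups compared, the gene lists and the alternatives were chosen with earlier results of these data known. Genes named are the 12 of largest fold change in each direction whose call holds with the gland score as a covariate and whose libraries do not overlap, the 6 largest in each direction whose call does not hold, and the listed genes; others are marked. Positions are those of Ensembl 115 on BDGP6.54, found for 13643 genes (99.9%) by symbol or synonym; Skeletor had none. Alternatives varied the gland covariate, the side of a gland score of 3, pseudocount, filter, scaling and fold limit. They also varied the libraries in the fit, the replicate block and each replicate left out. Figures were drawn with matplotlib 3.10.9.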

Additional observations from a re-analysis of the deposited data

How the results depend on the processing

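The 57 named or listed genes that passed at any fold kept their direction under every alternative that tested them. For genes whose libraries do not overlap, leaving out libraries could not change it. Among the 57 genes, the gland covariate ended 12 calls, a number set by the rule that named 6 such genes in each direction. Of all 99 called genes, 85 kept their call with it. A pseudocount of 5 ended 16 calls among the 57. For whole testes, the calls (in all, then higher and lower in Cdc73L) numbered 38, 11 and 27 with a pseudocount of 5. With a pseudocount of 0.1 the higher calls numbered 51. A mean signal of at least 5 left 48 calls, 28 of them lower, all among the 99. No fold limit gave 734, 393 and 341. A fit to libraries with a gland score of at least 3 alone gave 56, 18 and 38. A fit to those under 3 alone had 1 residual degree of freedom and gave 2, 1 and 1, which says nothing about stability. With the other groups kept, an alternative chosen after seeing the data, scores under 3 gave 62 in all and 38 lower, and scores of at least 3 gave 62, 19 and 43. Fewer libraries entered these fits. Leaving out 1 replicate at a time gave 92 to 224 calls, 30 to 35 higher and 61 to 193 lower, the highest without Paf1L replicate 1. Of the 30 and 69 genes, 20 and 46 were called in all 6 of these fits. For sorted cells, a pseudocount of 5 gave 238, 191 higher and 47 lower in Paf1L, quantile normalization 383 higher and 243 lower, no fold limit 2408, 1238 and 1170, and leaving out 1 column 627 to 909, 498 to 765 and 124 to 144. The cause of these shifts was not tested beyond what each setting changes.

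Replicate numbers were not taken to pair libraries. The deviations of same-numbered Cdc73L and Paf1L libraries correlated across genes with r = 0.479, -0.168 and 0.459. For differently numbered libraries r ran from -0.615 to 0.402. Same-numbered sorted Paf1L and control columns had 0.0784, 0.112 and -0.0613, and differently numbered ones -0.189 to 0.164. With the replicate block 100 genes were called in whole testes (30 higher and 70 lower) and 745 in sorted cells, and it ended the call of no named gene. Depth limits genes near the signal of 3 reads, such as antdh and CG5326 in Cdc73L libraries.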

Other observations

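Other genes lower in Cdc73L than in Paf1L testes, named here after their values were seen, encode sensory, enzymatic and chromatin proteins. Or1a, an odorant receptor, had a signal of 0.432, 0.526 and 0.542 in Cdc73L and of 5.27, 4.15 and 5.03 in Paf1L libraries (log2 fold change -1.95). Tmc, a transmembrane channel-like protein of mechanosensation, had -1.79 and tld, a metalloprotease that frees BMP ligands, -1.96. In sorted spermatocytes all of these were raised in Paf1L mutants, by 2.64, 4.03 and 3.99.

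Some of these genes were well expressed in control testes too. Wda, a subunit of the SAGA histone acetyltransferase complex, had 16.6, 17.0 and 15.6 in Cdc73L and 49.6, 47.8 and 42.4 in Paf1L libraries, with controls between 10.5 and 12.6. Both mutants thus lay above the controls, Paf1L by far more. ATPsyndelta, a subunit of the mitochondrial ATP synthase, had 72.5, 71.9 and 76.3 against 180, 184 and 150, with controls between 52.7 and 70.4. The acyl-CoA synthetase bgm had 15, 12.7 and 13.9 against 36.9, 44.3 and 41.5, and its Cdc73L libraries lay inside the controls' range of 11.7 to 22.1.

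Pp1-Y1, a Y-linked phosphatase subunit, was at 0, as listed, in each of the 3 columns of sorted controls and had a mean of 13.3 in sorted Paf1L columns, while in whole testes the Cdc73L libraries had 10.8, 8.93 and 9.80 and the Paf1L libraries 9.04, 6.52 and 6.44. Dop2R separated the 2 Leo1L crosses, with 7.96 to 9.71 in the cross and 2.54 to 4.74 in its inverse, and only the cross lay near the Cdc73L level of 10.1 to 11.6; this difference was noticed in the data and not tested.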
